A study of Mus musculus with 4 samples.

Results

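The nuclear-encoded genes of oxidative phosphorylation were followed in 4 RNA libraries of dorsal root ganglion explants, cultures of the sensory neurons that lie beside the spinal cord with their glia, from mouse. They were taken by gene symbol: the Nduf genes of groups a, b, c, s and v, the Cox4 to Cox8 genes, the Uqcr and Atp5 genes, and Sdha, Sdhb, Sdhc, Sdhd, Cyc1 and Cycs. The rule found 86 of 23282 gene rows, namely 35 of complex I, 4 of complex II, 9 of complex III, 20 of complex IV, 17 of complex V and cytochrome c (Cycs). No measured value entered the rule, but earlier results of these data were known when the members were chosen. Ndufa4 was counted with complex IV, of which it is a subunit, and 7 rows that match the symbols are not subunits of the somatic complexes: the testis copies Cox6b2, Cox7b2 and Cox8c and the related proteins Cox7a2l, Ndufa4l2, Atp5s and Atp5sl.

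All 4 groups were explants from C57BL/6 mice of embryonic day 13, kept in growth medium to 8 days in vitro (DIV) and in myelination medium from then on. The electrical stimulation (ES) groups received a 20 Hz field of 50 mV/mm for 1 h at 10 DIV, and the control groups received no field. RNA was taken at 11 or 19 DIV, so each treatment was seen on both days. Each group was 1 library made from 3 pooled explants, so there is no replicate error, and the intervals below describe the libraries compared, not the conditions.

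Oxidative phosphorylation takes electrons from NADH through complex I and from succinate through complex II, and passes them by way of ubiquinone, complex III, cytochrome c and complex IV to oxygen. Complexes I, III and IV pump protons across the inner mitochondrial membrane, and complex V, the ATP synthase, uses the returning protons to make ATP. Most subunits are encoded in the nucleus and are made in every cell type with mitochondria. In peripheral nerve tissue both long axons and myelinating Schwann cells rely on this supply.

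The most abundant member was Atp5g3, 1 of 3 genes that encode the same c subunit of the rotating ring of ATP synthase (the others are Atp5g1 and Atp5g2). The part of the protein that reaches the ring is the same for all of them, while their coding sequences differ at silent positions. A stretch of 90 bases from that part of the coding sequence (GENCODE M21 transcripts, build GRCm38, written 5′ to 3′ in the transcript's direction) shows it, with capitals at the 26 positions where the genes differ:
Atp5g1: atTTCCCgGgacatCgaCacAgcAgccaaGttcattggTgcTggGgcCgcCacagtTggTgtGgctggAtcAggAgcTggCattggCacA
Atp5g2: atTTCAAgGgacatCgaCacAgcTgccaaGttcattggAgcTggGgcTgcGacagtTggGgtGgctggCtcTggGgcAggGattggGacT
Atp5g3: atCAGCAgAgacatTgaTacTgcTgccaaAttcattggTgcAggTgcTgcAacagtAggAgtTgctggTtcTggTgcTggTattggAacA
The last 237 coding bases, stop codon included, were taken because they are the longest end over which all codons (79) translate alike. Over them Atp5g1 and Atp5g2 shared 84.8% of bases, Atp5g1 and Atp5g3 78.5%, and Atp5g2 and Atp5g3 77.2%. The genes lie on chromosomes 11, 15 and 2.

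A minority of the members held a motif searched for before their RefSeq start sites, which the symbol rule did not use. Of the 86 members, 70 had a promoter in the RefSeq table (GRCm38.p6), and the 250 bases before the start were searched on both strands for 4 motifs of factors known to act on respiratory genes. The motif of NRF1, a transcription factor of many mitochondrial genes, was searched as GCGCATGCG and stood in 7 of the 70 (10.0%), against 1.64% of all 27025 genes in the table and 3.79% of the abundant genes here (500 reads or more on average). These are the places in those 7 members, with the motif in capitals and up to 10 bases on either side (10 capitals where the motif reads on both strands at once):
Atp5g2 (chr15:102671070-102671099, minus strand): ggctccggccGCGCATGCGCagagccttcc
Atp5k (chr5:108434430-108434459, minus strand): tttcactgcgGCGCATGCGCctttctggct
Cox6a1 (chr5:115349101-115349130, minus strand): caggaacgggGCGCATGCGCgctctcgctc
Ndufa11 (chr17:56717692-56717721, plus strand): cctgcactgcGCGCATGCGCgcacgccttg
Atp5l (chr9:44920965-44920992, minus strand): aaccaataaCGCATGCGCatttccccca
Cycs (chr6:50566612-50566640, minus strand): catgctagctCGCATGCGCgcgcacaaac
Ndufa8 (chr2:36049339-36049357, minus strand): tcgctggagaCGCATGCGC
The estrogen-related receptor (ERR) motif AAGGTCA was in 7.14% of the members and 4.70% of all genes, and the members that held it included Atp5g3 and Ndufb4:
Atp5g3 (chr2:73911362-73911388, minus strand): tgttacaaagTGACCTTgagcgtcttc
Ndufb4 (chr16:37654407-37654433, minus strand): cctgagcctgAAGGTCAgactcgagag
The GABP motif CCGGAAGT was in 4.29% of the members, 3.23% of all genes and 6.44% of the abundant genes, and the YY1 motif AAGATGGCG in 2.86% of the members and 0.710% of all genes. At least 1 of the 4 motifs stood before 16 members (22.9%) and before 9.88% of all genes. A match is a run of letters and not a shown binding site. The start used is that of RefSeq. In GENCODE M21 the windows printed for Atp5g2, Atp5k, Cox6a1, Ndufa8 and Ndufb4 overlap an annotated exon. Those of Atp5g2, Ndufa8 and Ndufb4 lie within the annotated span of the gene, and so not before its outermost start.

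Levels are given in CPM, read counts relative to library size, after TMM scaling, which sets the libraries level on the bulk of genes. The 3' tag kit counts about 1 tag per transcript near its end, so no division by transcript length was made. The libraries held 5782834 to 7830950 reads, of which the members took 98259 (1.59%, control) and 109227 (1.89%, ES) at 11 DIV, and 123241 (1.83%, control) and 125405 (1.60%, ES) at 19 DIV. By counting error alone, a count of 0 allows a level of up to 3 reads, which was 0.376 to 0.518 CPM. With the wider scatter between these libraries, given next, a count of 0 allows more. Pairs of libraries differed by far more than counting error, so counts were divided by a spread factor (208 to 258, depending on the pair) before a 95% interval was computed, and all intervals below are of this kind. At least 10 reads on average were counted for 82 members, and at least 500 for 71. The ribosomal RNA precursor Rn45s took 5.18% of reads in control at 11 DIV and 2.65 to 3.08% elsewhere.

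As a whole, the members stood close to each other in the 4 libraries. Their summed level at 11 DIV was 16962 CPM in control and 18438 in ES. At 19 DIV it was 17879 in control and 15704 in ES. The highest sum was that of ES at 11 DIV and the lowest that of ES at 19 DIV. At 11 DIV the ES sum was 1.09 times control, with an interval of 0.958 to 1.23 that includes equality. At 19 DIV it was 0.878 times control (0.777 to 0.993), and in ES it was 0.852 times as high at 19 as at 11 DIV (0.746 to 0.973). In control the sum at 19 DIV was 1.05 times that at 11 DIV (0.927 to 1.20). The interval of any sum here takes the scatter of its genes as independent. Scatter that the genes share within a library would make it wider, and this was not tested. The ES to control ratio at 19 DIV rests in part on Atp5g3: without it the ratio was 0.903 (0.794 to 1.03), and its interval includes equality. With scaling by total count alone, which moves all genes by 0.13 on the log2 scale in the comparisons with control at 11 DIV, the ES sum at 11 DIV was 1.19 times control (1.05 to 1.35) and the control sum at 19 DIV 1.15 times that at 11 DIV (1.02 to 1.31).

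**Figure D1:**
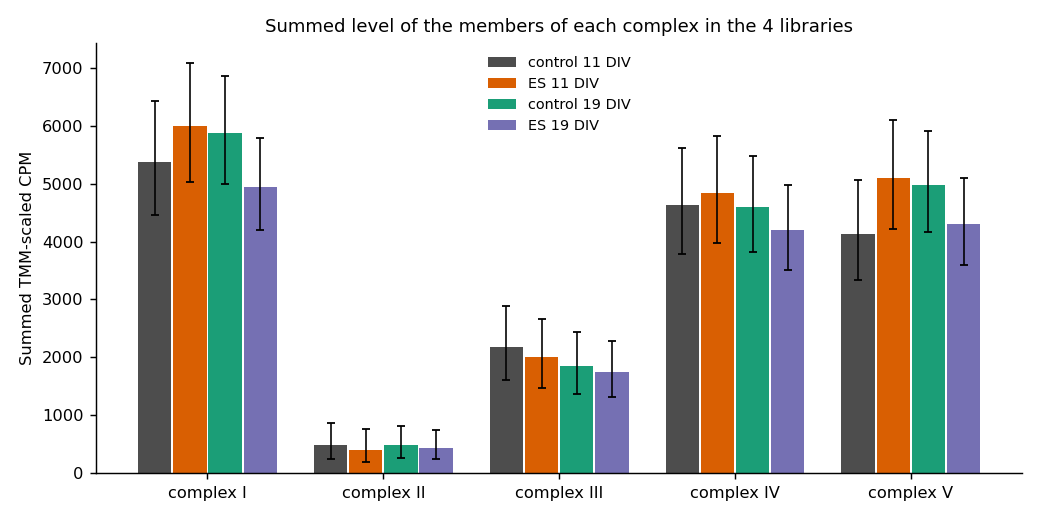
Summed level of the members of each complex (TMM-scaled CPM, linear axis) in the 4 libraries, 1 bar per library, with spread-adjusted 95% intervals as lines. Within each complex the intervals of the 4 libraries overlap; the sums of complex V run from 4131 CPM in control at 11 DIV to 5098 in ES at 11 DIV.

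No single complex stood clear of the others. The sums of complex I were 5379 and 5995 CPM in control and ES at 11 DIV, and 5872 and 4947 at 19 DIV, so that ES was 1.11 times control on the first day (0.890 to 1.40) and 0.842 times on the second (0.677 to 1.05). Complex V had 4131 and 5098 CPM at 11 DIV and 4982 and 4300 at 19 DIV, or 1.23 (0.960 to 1.59) and 0.863 (0.682 to 1.09) times control. For complex IV the sums were 4631, 4840, 4591 and 4194 CPM in the same order of libraries, for complex III 2183, 2000, 1850 and 1741, and for complex II 475, 401, 474 and 437. The ES ratios of these 3 complexes lay between 0.844 and 1.04 at 11 DIV and between 0.914 and 0.941 at 19 DIV. Those of complex II rest on Sdhb, its most abundant gene, without which they were 1.36 (0.417 to 4.78) and 0.462 (0.132 to 1.43). The ratio of complex IV at 11 DIV was 0.958 without Cox8a. All intervals of single complexes included equality after TMM scaling. With total count scaling, complex V left it in ES at 11 DIV (1.35, 1.05 to 1.74) and in control at 19 against 11 DIV (1.32, 1.02 to 1.71).

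The median member moved less than 0.25 on the log2 scale in every comparison. In ES against control at 11 DIV the median log2 difference of the 82 members was 0.21, with 51 above 0 and 31 below. At 19 DIV it was -0.13, with 36 above and 45 below. Between the days it was 0.04 in control (43 above, 38 below) and -0.21 in ES (35 above, 47 below). The median of all 11665 genes tested was 0.00 in each comparison. Among the 71 members with at least 500 reads the medians were 0.19, -0.18, 0.13 and -0.12 in the same order, against -0.05, 0.03, -0.01 and 0.05 for the 2963 genes of that depth.

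The members varied less over the libraries than other genes of that depth. The ratio of the highest to the lowest library had a median of 2.06 over the 71 members and 2.56 over all 2963 genes. It was above 2 for 38 members (53.5%) and for 70.6% of genes, and above 4 for 9 members (12.7%) and 24.7% of genes. Among the complexes the median ratio was 1.78 for complex IV (12 members) and 1.82 for complex V (15). It was 2.46 for complex II (3), 2.56 for complex I (31) and 2.86 for complex III (9). The median member had more reads (1192) than the median gene (932), and the part of depth in this difference was not tested. Control at 19 DIV was the highest library for 24 of the 71 members (33.8%, against 22.9% of all genes of that depth), and control at 11 DIV the lowest for 23 (32.4%, against 26.0%).

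**Figure D2:**
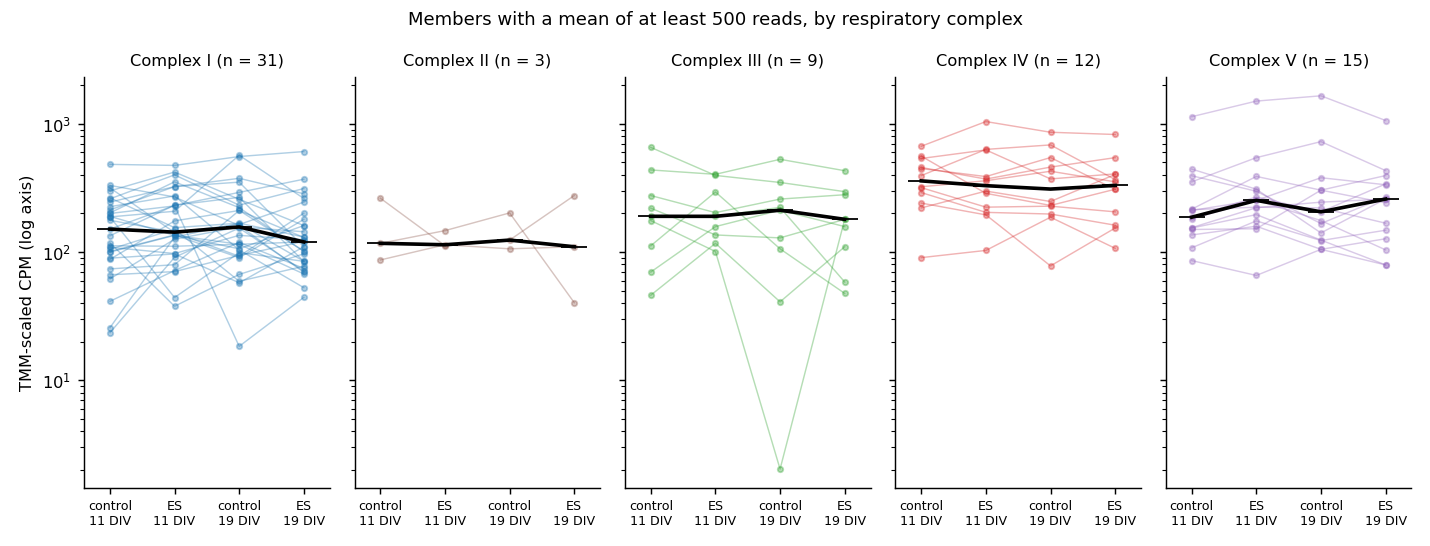
Level of each of the 71 deeper members except Cycs (TMM-scaled CPM, log axis) in the 4 libraries, in 1 panel per complex. Thin lines join the values of a gene, and the thick line is their median. Lines of complex IV and V stay close to level (median highest-to-lowest ratios of 1.78 and 1.82), and the single line that dips furthest is Uqcrc1 of complex III in control at 19 DIV.

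Markers of the cell types in the explants moved more between these libraries than the members did. At 11 DIV the 10 sensory neuron markers summed to 3232 CPM in control and 4385 in ES. At 19 DIV they summed to 4105 in control and 1562 in ES. The neuron sum of ES was thus 1.36 times control at 11 DIV (1.03 to 1.80) and 0.381 times at 19 DIV (0.270 to 0.530), and all 10 markers were lower in ES at 19 DIV. The 10 markers of Schwann cells and satellite glia summed to 4846, 8135, 12394 and 9994 CPM (control and then ES, first at 11 and then at 19 DIV), and the 8 fibroblast markers to 4983, 6712, 9353 and 13062. Endothelial markers (25.2 to 48.3 CPM, Pecam1 and Tek at 0 throughout), macrophage markers (25.2 to 115 CPM, Aif1 at 0), striated muscle markers (0.173 to 17.6 CPM, Myog and Des at 0) and red blood cell markers (0 to 49.2 CPM, Alas2 at 0) were low. The part of cell makeup in the members' levels was not tested, and fewer cells of a type cannot be told apart from less RNA per cell in these libraries.

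By the size rule (at least 2-fold, at least 50 reads in the higher library, and an interval that leaves out equality) almost no member stood apart. In ES against control at 11 DIV it called 0 members higher and 0 lower, against 0.266% and 0.429% of all genes. At 19 DIV 1 member was higher, Uqcrc1, and 0 were lower, against 0.343% and 0.446%. In control at 19 against 11 DIV 1 was higher, Ndufa1, and 0 lower, against 0.403% and 0.652%, and in ES 0 and 0, against 0.377% and 0.394%. With 0 or 1 call among 82 members, the members cannot be set apart from the background.

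A 2-fold difference without the interval was less frequent among the 82 members than among all genes tested, in each comparison and direction, but not in all of them at matched depth. In ES against control at 11 DIV 10 members were at least 2-fold higher and 6 lower of 82 (12.2% and 7.32%), while 24.4% and 25.0% of all genes were. At 19 DIV 7 were higher and 14 lower (all genes 25.2% and 26.9%), in control over the days 15 and 13 (26.6% and 25.6%), and in ES over the days 3 and 17 (26.2% and 25.9%). Of the 71 members with at least 500 reads, 6 were higher (8.45%) and 4 lower (5.63%) in ES at 11 DIV, against 15.8% and 16.0% of all genes of that depth. At 19 DIV 5 were higher (7.04%, against 15.6%), and 10 were lower, which is 14.1% of members and 14.1% of genes. Over the days in control 12 were higher (16.9%, against 17.2%) and 10 lower (14.1%, against 16.7%). In ES 2 were higher (2.82%, against 18.0%), while the 12 lower members were a larger share than that of all genes (16.9%, against 15.3%).

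Complex I begins with the core subunits, which carry the flavin and the iron-sulfur clusters and bind ubiquinone. Ndufs1, the largest iron-sulfur subunit, had 25.7 and 131 CPM at 11 DIV (control and ES) and 167 and 84.8 at 19 DIV. Ndufv1, which binds the flavin, had 61.8, 126, 157 and 144 CPM in the same order. Both were lowest in control at 11 DIV and highest in control at 19 DIV. In ES at 11 DIV they stood at 5.10 and 2.05 times control. Both spread-adjusted intervals included equality, with lower ends of 0.389 and 0.254. Ndufv2, Ndufs3, Ndufs7 and Ndufs8 had other orders, and the sum of the 7 core genes was 430, 610, 623 and 561 CPM. For Ndufs8 the level in control at 19 DIV was 1.89 CPM, against 45.0 to 53.0 in the other libraries.

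Among the accessory subunits of complex I, which surround the core and serve its assembly and stability, 3 were at least 2-fold lower at 19 than at 11 DIV in both treatments. Ndufb4, a subunit of the membrane arm (chromosome 16, positions 37647170 to 37654453, GRCm38), had 1159 and 1354 reads in control and ES at 11 DIV and 127 and 354 at 19 DIV. Its levels were 200 and 229 CPM at 11 DIV and 18.4 and 44.3 at 19 DIV, or 0.0921 times (interval up to 1.23) and 0.194 times (up to 1.41). Ndufs6, a zinc-binding subunit of the arm that meets NADH (chromosome 13, positions 73319838 to 73328542), had 226 and 274 CPM at 11 DIV and 104 and 52.8 at 19 DIV. Ndufa7, of the same arm (chromosome 17, positions 33824572 to 33838317), had 331 and 269 CPM at 11 DIV and 161 and 69.5 at 19 DIV. For all 3 genes both 11 DIV libraries were above both 19 DIV libraries, an order also seen in other members such as Uqcrq and Cox7a2. They were the only members at least 2-fold lower at 19 DIV in both treatments. They make up 3.66% of the 82 members, against 6.67% of all genes tested, and 4.23% of the 71 deeper members, against 2.73% of genes of that depth, so the share is near the background. A lower level of any size in both treatments was seen for 24 of the 82 members (29.3%, against 22.1% of all genes). At matched depth it was 28.2% of the 71 deeper members and 25.5% of genes, so this share is near the background too. The control and the ES pair share no library. Ndufs6 overlaps Mrpl36 in the annotation, and whether counting used strand is not given in the sources used here.

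The edgeR quasi-likelihood test over the 4 libraries, with ES and day as additive factors and 1 residual degree of freedom, called 0 members and 0 of 10034 genes for either factor. At an unadjusted edgeR p below 0.05 there were 204 genes (2.03%) for day, with 3 members among them. These were Ndufb4 (edgeR p of 0.00692), Ndufa7 (0.0274) and Ndufs6 (0.0290), each with an adjusted p of 1.00. The fitted log2 difference for 19 against 11 DIV was -2.90 for Ndufb4 and -1.74 for Ndufs6. For ES there were 0 members among 109 such genes (1.09%). DESeq2 called the same 3 members for day (smallest adjusted p of a member 2.81e-05) among 708 genes, which is 3.61% of the members and 5.50% of the genes it tested, and 0 members among 386 genes for ES; limma with voom called 0 genes for either.

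Ndufa1, a small accessory subunit encoded on the X chromosome (positions 37187588 to 37191163), was the only member past the size rule between the days. It had 188 and 208 CPM in control and ES at 11 DIV, and 569 and 262 at 19 DIV, in reads 1090, 1232, 3925 and 2093. Control at 19 DIV stood above the 3 other libraries, 3.03 times control at 11 DIV (1.05 to 10.9), while ES at 19 DIV was 1.26 times ES at 11 DIV (0.360 to 5.04). With a 99% interval it did not pass.

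The Ndufb genes code for accessory subunits of the membrane arm. In ES at 11 DIV 8 of 10 were above control, in ES at 19 DIV 5 were above and 5 below, and in ES 7 of 10 were lower at 19 than at 11 DIV. Their sum was 2185 CPM in ES at 11 DIV and 1440 in ES at 19 DIV, a ratio of 0.659 (0.430 to 1.01), against 1806 and 1845 in control. Ndufb5 had 245, 324, 351 and 110 CPM and Ndufb9 134, 232, 267 and 84.4, so both were lowest in ES at 19 DIV, at 0.313 (0.0680 to 1.10) and 0.316 (0.0514 to 1.35) times control. The 12 Ndufa genes of this complex summed to 2182, 1901, 2442 and 2143 CPM. The most abundant of them, Ndufa2, was nearly level, with 483, 474, 556 and 608 CPM, and Ndufa3 had 112, 111, 115 and 120. Ndufa10 and Ndufa5, accessory subunits too, stood at 0.235 (0.00939 to 1.78) and 0.447 (0.101 to 1.61) times control in ES at 11 DIV. Ndufa5 was 2.17 times control (0.471 to 14.5) at 19 DIV, with 317, 142, 92.7 and 201 CPM.

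**Figure D3:**
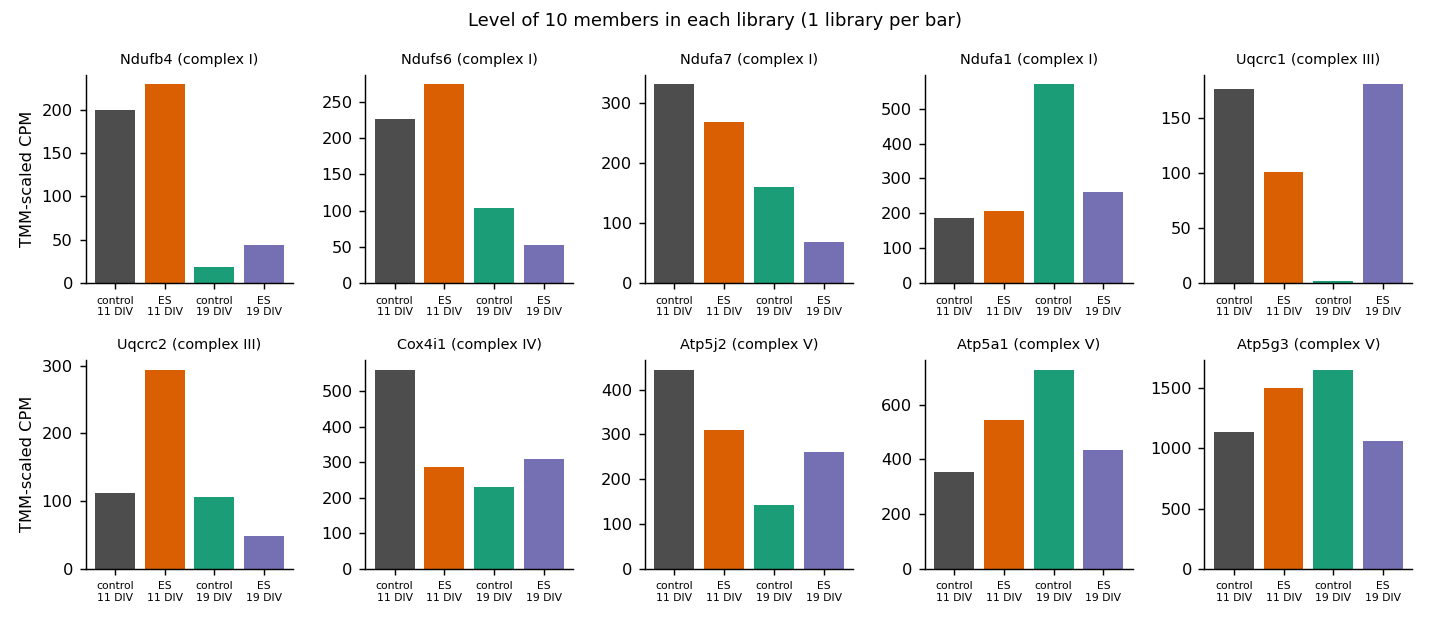
Level of 10 members (TMM-scaled CPM, linear axes that start at 0 and differ between panels) in the 4 libraries, 1 library per bar and so without an error. Ndufb4, Ndufs6 and Ndufa7 have both 11 DIV bars above both 19 DIV bars, Uqcrc1 is near 0 in control at 19 DIV (2.03 CPM), and Atp5g3 is between 1062 and 1655 CPM in all libraries.

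Complex II, succinate dehydrogenase, is also an enzyme of the citric acid cycle, and its catalytic genes went separate ways. Sdha, the flavoprotein, had 117 and 147 CPM in control and ES at 11 DIV, and 202 and 40.3 at 19 DIV. Sdhb, the iron-sulfur subunit, had 263 and 112 CPM at 11 DIV, and 124 and 276 at 19 DIV. Where Sdha was lowest, in ES at 19 DIV, Sdhb was highest. ES stood at 0.200 times control for Sdha (0.00991 to 1.37) and at 2.22 times for Sdhb (0.607 to 10.6) on that day. The membrane anchors were low: Sdhc had 86.8 to 114 CPM and Sdhd 7.60 to 42.9.

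In complex III the core proteins Uqcrc1 and Uqcrc2 form the part on the matrix side, and Uqcrc1 had the widest range of all members with a read in every library. Uqcrc1 (chromosome 9, positions 108936633 to 108949623) had 1021 and 598 reads in control and ES at 11 DIV, and 14 and 1436 at 19 DIV, or 176, 101, 2.03 and 180 CPM. The low library was control at 19 DIV. ES was 88.5 times control there, with a lower interval end of 1.00 that just passed the size rule. It did not pass with total count or upper quartile scaling or with a 99% interval. Uqcrc2 had 112, 294, 106 and 47.6 CPM, and was 0.162 times as high in ES at 19 as at 11 DIV (0.00950 to 1.01). An exon of Pdzd9 on the other strand overlaps the last 500 bases of Uqcrc2, so its reads may belong to either gene. Such an overlap with another coding gene is also annotated for Ndufa2, Ndufa3, Ndufa4l2, Cox6a2 and Cox6c.

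Of the redox subunits of complex III, Cyc1, which carries the heme of cytochrome c1, had 46.1 and 117 CPM in control and ES at 11 DIV, and 40.9 and 110 at 19 DIV. Both ES libraries were above both control libraries, and Cyc1 was the only member at least 2-fold higher in ES on both days, at 2.54 (0.256 to 66.8) and 2.68 times (0.283 to 80.7). That is 1.22% of the 82 members, against 5.86% of all genes tested and 2.53% of the 2963 deeper genes, so the share is not above the background. Its edgeR p for ES was 0.200, with an edgeR adjusted p of 1.00. Uqcrfs1, the Rieske iron-sulfur protein, had 220, 136, 129 and 180 CPM, highest and lowest in the control libraries. Of the small subunits, Uqcrh was the most abundant and nearly level (437, 404, 529 and 431 CPM), Uqcrq had 655, 396, 349 and 296, and Uqcr10 203 to 280. Cytochrome c itself, the carrier between complexes III and IV encoded by Cycs, had 163, 105, 110 and 85.3 CPM, highest in control at 11 DIV.

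Complex IV, cytochrome c oxidase, had the smallest median ratio of the highest to the lowest library (1.78, with more reads per gene than the other complexes). Cox8a, its most abundant gene, had 669 and 1042 CPM in control and ES at 11 DIV, and 860 and 826 at 19 DIV, a ratio of 1.56 (0.844 to 2.94) on the first day and 0.961 (0.541 to 1.71) on the second. Cox6a1 had 395, 632, 685 and 368 CPM, with both middle values above both others, and ES was 1.60 times control at 11 DIV (0.715 to 3.75) and 0.537 times at 19 DIV (0.243 to 1.14). Cox4i1, the subunit through which ATP regulates the enzyme, was highest in control at 11 DIV, with 560, 287, 231 and 309 CPM. At 19 DIV its control level was 0.412 times that at 11 DIV (0.140 to 1.09). Cox7a2 (372 to 626 CPM), Cox6c (371 to 545), Cox6b1 (308 to 546), Cox7c (323 to 427), Cox5b (221 to 403), Cox7b (162 to 291), Cox5a (78.0 to 241) and Ndufa4 (90.5 to 187) made up the rest of the subunits found in most tissues. Cox7a2l, which takes part in joining complex IV to complex III, had 206 to 318 CPM.

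The isoforms of heart, muscle, lung and testis took few or none of the reads of complex IV. Cox8b, Cox7b2 and Cox8c had 0 reads in all 4 libraries, which by counting error alone allows up to 0.518 CPM. The muscle form Cox6a2 had 6 reads in ES at 19 DIV alone. Cox7a1, the heart and muscle form, took 3 of 3111, 0 of 3707, 109 of 2672 and 20 of 3268 reads of the Cox7a1 and Cox7a2 pair, at most 4.08%. Cox4i2, a form known from lung, took 0, 40, 145 and 0 reads, at most 8.36% of the pair with Cox4i1. The testis form Cox6b2 took 9.14% and 15.0% of the reads of its pair with Cox6b1 in control and ES at 11 DIV, and 1.59% and 11.9% at 19 DIV. In reads this was 261, 404, 61 and 331, lowest in control at 19 DIV. Ndufa4l2, a relative of Ndufa4 known as a gene of the hypoxia response, had 213, 196 and 176 reads in the first 3 libraries. In ES at 19 DIV it had 0, which is 68.0-fold lower than control when 0 is put at 3 reads. Its spread-adjusted interval reached 118 times and included equality.

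In complex V all 5 genes of the F1 head, where ATP is made, and its central stalk were above control in ES at 11 DIV, and 2 of them were at 19 DIV. Their sum was 1125 CPM (control) and 1623 CPM (ES) at 11 DIV, then 1581 and 1414 at 19 DIV. That is 1.44 times control at 11 DIV (0.897 to 2.35) and 0.894 times at 19 DIV (0.585 to 1.37). Atp5a1, the alpha subunit, had 353, 545, 727 and 432 CPM, lowest in control at 11 DIV and highest in control at 19 DIV, a ratio of 2.06 (0.907 to 5.10). Atp5b, the catalytic beta subunit, had 216, 389, 304 and 395 CPM. Atp5e, the small epsilon subunit, had 187, 269, 206 and 340. In both of the latter each ES library was above its control.

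Of the c subunit genes shown above, Atp5g3 (chromosome 2, positions 73908447 to 73911326) had 6584 and 8915 reads in control and ES at 11 DIV, and 11405 and 8477 at 19 DIV. Its levels were 1137, 1505, 1655 and 1062 CPM, with control at 19 DIV the highest and ES at 19 DIV the lowest. ES was 1.32 times control at 11 DIV (0.817 to 2.17) and 0.642 times at 19 DIV (0.405 to 1.01). Atp5g3 gave 83.7% and 87.0% of the reads of the 3 genes in control and ES at 11 DIV, and 88.7% and 83.7% at 19 DIV. Atp5g1 gave 3.80 to 6.32% and Atp5g2 5.63 to 10.0%. Atp5g3 was thus the main c subunit gene in each library.

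The peripheral stalk, which holds the head against rotation (Atp5f1, Atp5h, Atp5j and Atp5o), summed to 807, 847, 839 and 918 CPM, with ES at 1.05 (0.566 to 1.95) and 1.09 times control (0.625 to 1.94). The small membrane subunits Atp5j2, Atp5k and Atp5l summed to 837, 815, 697 and 699 CPM. Within that level sum Atp5j2 had 444, 309, 141 and 260 CPM, and Atp5k 181, 253, 380 and 335. In control Atp5j2 was 0.317 times as high at 19 as at 11 DIV (0.0769 to 1.04) and Atp5k 2.10 times (0.658 to 8.15). Atp5s and Atp5sl, related proteins outside the synthase, had 254 and 241 reads in ES at 11 DIV and at most 28 in any other library. Atp5s had 0 reads in control at 11 DIV, so ES was 82.8-fold higher with 0 put at 3 reads. The lower end of its spread-adjusted interval was 0.0501. The counts of Atp5s lay within 5% of those of Pnpla3 in every library. Those of Atp5sl lay within 5% of Bend6 and those of Ndufb7 within 5% of Sbno1. How often other genes have such a match was not counted, so these 3 rows are only marked as uncertain.

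The difference between ES and control often had another sign on the second day. Of the 71 members with at least 500 reads, 16 were higher in ES on both days, 12 lower on both, 28 higher and then lower, and 15 lower and then higher. The same sign was thus seen for 39.4% of the members and 47.5% of all genes of that depth. Across the members the log2 differences of the 2 days had a Pearson r of -0.32, and across all 2963 genes -0.07. The comparisons share no library, but genes are not independent replicates, and each library's own scatter enters all its genes. Between the days the sign in control and ES was the same for 56.3% of members and 52.2% of genes.

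**Figure D4:**
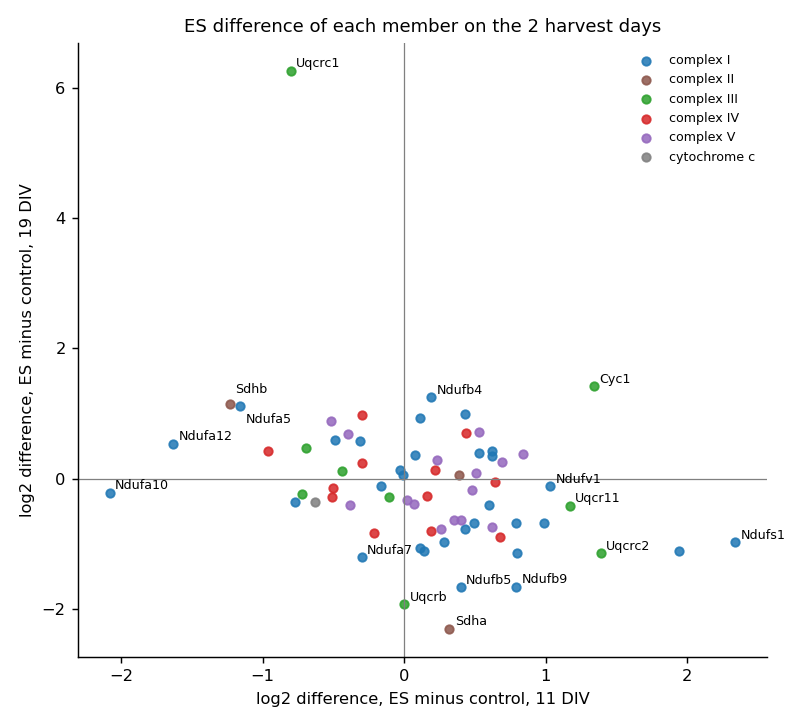
Log2 difference of ES minus control at 11 DIV (x axis) and at 19 DIV (y axis) for the 71 deeper members, 1 point per gene, coloured by complex. Points fall on all sides of the zero lines, most (28) at the lower right; Cyc1 stands alone above 1 on both axes, and Uqcrc1 is far up because of its 14 reads in control at 19 DIV.

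The assembly factors that build the complexes had few reads. The 14 of complex I summed to 162 to 357 CPM, with Ndufaf4 (20.5, 166, 33.1 and 25.3 CPM) and Ndufaf2 (58.3, 10.5, 55.0 and 52.2) the most abundant. The 24 of complex IV summed to 920, 1059, 852 and 1247 CPM, led by the copper carrier Cox17 with 177, 233, 175 and 159. The 13 of complexes II, III and V summed to 187 to 390 CPM. By the size rule 0 genes of these lists were called in any comparison, and their sums had intervals that included equality throughout.

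The enzymes of the citric acid cycle and pyruvate dehydrogenase, which supply the electrons, summed to 1567 and 2013 CPM in control and ES at 11 DIV, and 1778 and 1657 at 19 DIV. The list holds 18 genes, and all 4 ratios of its sum had intervals that included equality. Mdh2, malate dehydrogenase and the most abundant of them, had 410, 273, 396 and 375 CPM. The 77 mitochondrial ribosomal proteins, which help to make the subunits encoded in mitochondrial DNA, summed to 3540, 3929, 3575 and 3835 CPM, with 0 genes past the size rule. No mitochondrially encoded subunit was analysed here.

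The import genes, whose products bring nuclear-encoded subunits into mitochondria, had lower sums at 19 than at 11 DIV. The 25 summed to 2768 and 3326 CPM in control and ES at 11 DIV, and to 2086 and 2008 at 19 DIV. Over the days the ratio was 0.754 in control (0.527 to 1.08) and 0.604 in ES (0.425 to 0.856). Timm22, a channel for carrier proteins of the inner membrane, had 1203 and 1546 CPM at 11 DIV and 494 and 519 at 19 DIV, past the size rule in control (0.411, 0.205 to 0.788) and in ES (0.336, 0.174 to 0.622). Tomm6, a small subunit of the outer membrane pore, had 275 and 338 CPM at 11 DIV and 46.9 and 64.7 at 19 DIV, and passed it in ES (0.191, 0.0197 to 0.970). For both genes each 11 DIV library was above each 19 DIV library. The median gene of the list stood at a log2 difference of 0.66 in control and -0.04 in ES, so the sums follow these abundant genes and not the list.

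Of the 11 subunits and partners whose symbols the rule leaves out, Atpif1, the inhibitor protein of ATP synthase, passed the size rule in control over the days. It had 978, 654, 433 and 552 CPM, or 0.443 times at 19 DIV (0.208 to 0.902). Chchd2, a protein of mitochondria and nucleus tied to complex IV, was the most abundant, with 2827, 1926, 1556 and 1575 CPM. It was 0.681 times control in ES at 11 DIV (0.474 to 0.974) and 0.551 times as high in control at 19 as at 11 DIV (0.372 to 0.807), both under 2-fold. In these comparisons the sum of the 11 was 0.814 (0.623 to 1.06) and 0.610 times (0.455 to 0.816). Both comparisons contain control at 11 DIV, where these 2 genes were highest.

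The regulators of respiratory genes had few reads, with 2 of 13 at a mean of at least 500. Their sum in ES was 0.727 times control at 11 DIV (0.220 to 2.27) and 1.82 times at 19 DIV (0.674 to 5.49). Yy1 had 210, 73.3, 73.4 and 105 CPM and Esrra, an estrogen-related receptor, 74.6, 78.5, 33.9 and 132. Ppargc1a, a coactivator of mitochondrial genes, had 2, 13, 0 and 411 reads, Nrf1 88, 313, 0 and 285, and Gabpa 0, 0, 69 and 0. Tfam, which packs and transcribes mitochondrial DNA, had 140, 351, 104 and 571 reads. The 13 regulators summed to 225 to 409 CPM and the 11 genes for mitochondrial DNA to 119 to 267, and 0 genes of either list passed the size rule.

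**Figure D5:**
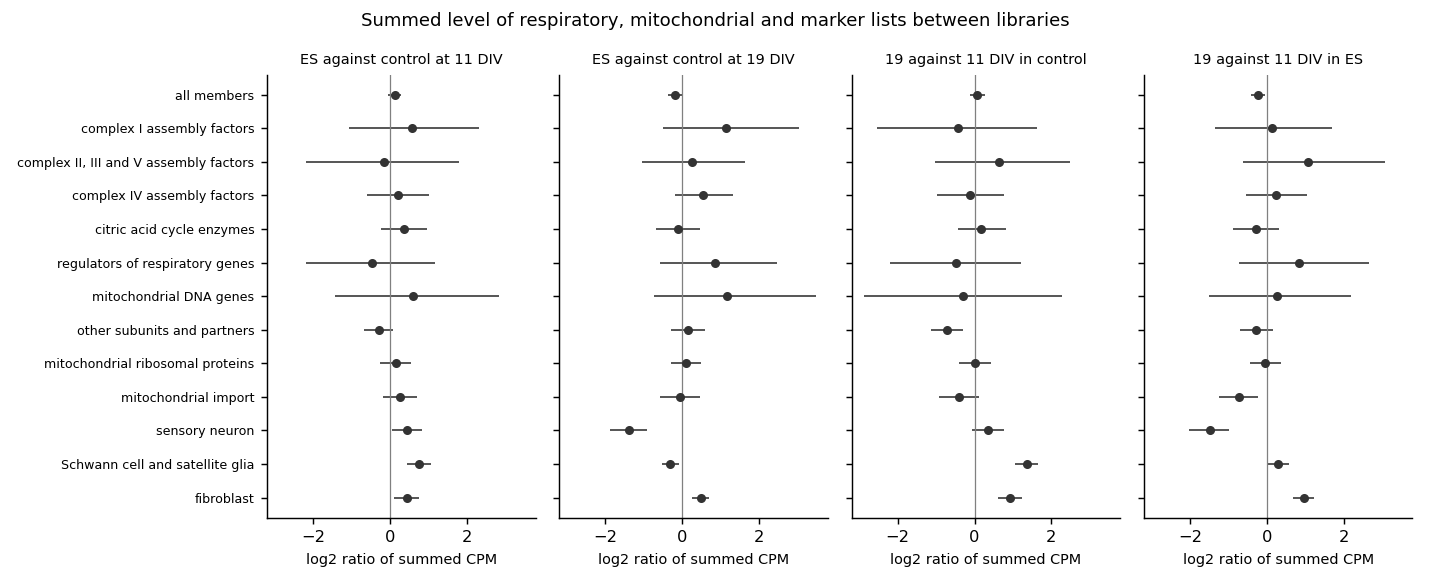
Ratio of the summed level (log2 axis) in each of the 4 comparisons for the members, the other lists of respiration and mitochondria, and the 3 marker lists with high counts, with spread-adjusted 95% intervals as lines. The members lie close to 0 with short intervals (0.852 to 1.09 as ratios), while the sensory neuron markers lie far to the left in both comparisons that contain ES at 19 DIV (0.381 and 0.356).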

How the data were processed

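RNA from 4 groups of explants, 1 library each, was sequenced at transcript 3' ends. The deposited values were whole-number read counts per gene symbol, which the authors made with Bowtie2 and bedtools on mm10, per the submitters' processing notes; the sources used here do not give versions, duplicate handling or strand use. Here counts were scaled with TMM (edgeR 4.0.16, R 4.3.3) to CPM. For 2 libraries the ratio has a Clopper-Pearson 95% interval on scaled-down counts. Both counts are divided by a factor, namely how much larger the median squared difference was than counting error among genes of 500 to 3000 mean reads. Log2 differences used a prior count of 2. A gene was tested if its mean was at least 10 reads. edgeR's quasi-likelihood test (adjusted p threshold 0.05, Benjamini-Hochberg) used all genes; DESeq2 1.42.0 and limma 3.58.1 were alternatives, with other scalings, count minimums, fold minimums and intervals. Scripts were tested on simulated data. The factor takes in every difference between the 2 libraries at the median gene, and its sources cannot be told apart with 1 library per group. Other steps used scipy 1.17.1 and pandas 2.3.3 in Python 3.11.15.

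Positions came from GENCODE M21 (85 of 86 members matched once; Atp5o did not), and 8 members have an exon of another coding gene in their last 500 bases, on the other strand. The members and lists were chosen with earlier results of these data known. Named genes were, per complex, the 3 most abundant, those past the size rule, per comparison the 4 furthest above and below equality by the nearer interval end, all complex II genes, Cyc1 and Cycs, the tissue isoforms, rows that are not subunits and, per other list, the 2 most abundant and those past the size rule. Ndufs1, Ndufv1, Ndufs8, Ndufb9 and Ndufa3 were named after their values were seen. A few genes covered by this rule are not reported here.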

Additional observations from a re-analysis of the deposited data

Results flagged for a closer look

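For the sum of all members the ratio of ES to control was on opposite sides of 1 on the 2 days. The ratio at 19 DIV was 0.808 times that at 11 DIV, with a spread-adjusted 95% interval of 0.680 to 0.961. Of the complexes, the sums of I, IV and V also lay above control at 11 DIV and below it at 19 DIV. The 19 DIV ratio was 0.756 times the 11 DIV ratio for complex I (0.557 to 1.03), 0.874 times for complex IV (0.625 to 1.22; without Cox8a its ES ratio at 11 DIV was 0.958, below control) and 0.699 times for complex V (interval up to 0.978). With 1 library per group these intervals describe the 4 libraries, and the difference between the conditions was not tested. The intervals also take the scatter of the summed genes as independent, and shared scatter would widen them.

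Some single members were at least 2-fold from control in opposite directions on the 2 days. Uqcrc2 had an ES ratio of 2.62 at 11 DIV and 0.448 at 19 DIV, so the second was 0.171 times the first, and Sdhd, with as few as 44 reads, went from 3.71 to 0.265 (0.0715 times). The other direction was seen for Sdhb, from 0.426 to 2.22 (5.22 times), and Ndufa5, from 0.447 to 2.17 (4.85 times). The intervals of these 4 genes included equality, and these differences were not tested either.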

How the results depend on the processing

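All alternative values of the sums (148), medians (36) and single folds (906) stayed within the interval of the reported value (for medians, an interval over genes, which are not replicates), but 9 of the sums and 11 of the folds changed direction, all of them of results whose interval includes equality. Leaving out the most abundant gene moved complex II by over 1.5 times in each comparison: from 0.844 to 1.36 for ES at 11 DIV, 0.922 to 0.462 for ES at 19 DIV, 0.999 to 1.65 in control over the days and 1.09 to 0.561 in ES over the days. It moved complex IV in ES at 11 DIV from 1.04 to 0.958. Other turns of sums were for complexes II and IV in control over the days (reported as 0.999 and 0.991, otherwise up to 1.09). The folds that turned lay between 0.924 and 1.02 as reported. Counts of members past the size rule depended on the spread factor. On undivided counts they were 10 higher and 6 lower in ES at 11 DIV, 7 and 14 at 19 DIV, 15 and 13 in control over the days, and 3 and 17 in ES over the days. Of all genes, 24.4% and 25.0% were called so in ES at 11 DIV and 25.2% and 26.9% at 19 DIV. Over the days it was 26.6% and 25.6% in control and 26.2% and 25.9% in ES. Each of these shares was above that of the members. In ES at 19 DIV the count of higher members was 0 with total count scaling, with upper quartile scaling and with a 99% interval, where Uqcrc1 was lost. In control over the days it was 0 with a 99% interval, where Ndufa1 was lost. In ES over the days 1 member, Uqcrc2, was lower with upper quartile scaling, as were 0.437% of all genes. Of the members with at least 500 reads, a minimum chosen after seeing the data, 6 were 2-fold higher in ES at 11 DIV. That is 8.45%, against 15.8% of all genes of that depth. For day, DESeq2 called 3 members (3.61%, against 5.50% of the genes it tested). No paired analysis was possible because the labels give no replicate numbers and each group is 1 library; leaving out a library would leave the additive model no residual degree of freedom. The intervals of all but the deepest members span several-fold, which limits what can be seen.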
